A study of Homo sapiens with 8 samples.

Results

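The miR-30 family was followed in small RNA libraries of DLD1 and HT29, established human cell lines of colorectal adenocarcinoma, grown either as a monolayer (2D) or as multicellular spheroids (MCS). The members were 9 mature miRNAs of this family (hsa-miR-30a-5p, hsa-miR-30a-3p, hsa-miR-30b-5p, hsa-miR-30c-5p, hsa-miR-30c-2-3p, hsa-miR-30d-5p, hsa-miR-30d-3p, hsa-miR-30e-5p and hsa-miR-30e-3p, written without the prefix from here on), taken by name from 1780 mature miRNAs listed in the raw count table, and all 9 were listed for each of the 8 libraries. A further 2 arms of the same hairpins, miR-30b-3p and miR-30c-1-3p, were listed as well and are described where they bear on a member. Cells were taken in 2 biological replicates from each of 4 groups, DLD1 2D, DLD1 MCS, HT29 2D and HT29 MCS, all after 6 days of growth.

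For 2D, flasks were seeded with 35000 DLD1 or 100000 HT29 cells. For MCS, 7000 DLD1 or 3500 HT29 cells were seeded per round-bottom well over agarose. DLD1 was grown in RPMI and its libraries were made with version V3 of the NEXTflex small RNA kit, whereas HT29 was grown in DMEM and its libraries were made with version V2, so the cell line, the medium and the kit version cannot be told apart. Neither line carries a named genetic change or drug treatment in the labels, and a level here is a mean over all cells of a culture, in which fewer cells with a miRNA and less of it per cell cannot be told apart. The libraries held 10495634 to 26211524 miRNA counts, and the family made up 1.368% to 3.929% of them. In both HT29 cultures the replicate 1 library stood apart from replicate 2, since its 10 most abundant miRNAs took 80.79% to 85.9% of the counts against 63.88% to 67.98% in replicate 2 and 62.9% to 67.4% in DLD1.

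A miRNA hairpin is cut into a duplex whose strands are named 5p and 3p after the side of the hairpin they come from, and the strand that is kept guides silencing of mRNAs that pair with its seed, bases 2 to 8. In the miR-30 family the 5p strand is usually the abundant one. The family is known for repressing SNAI1, a driver of the epithelial-mesenchymal transition, and BECN1, an autophagy gene, and miR-30a has been described as a restraint on growth in colorectal cancer.

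The mature sequences explain why the loci are read as a family and how closely they can be told apart, so those available from the RefSeq table (GRCh38.p14, 6 of the 9 members, and miR-30c-1-3p) are shown 5′ to 3′ with the seed in capitals. The first set is the 5p arms, which share a seed.
miR-30a-5p: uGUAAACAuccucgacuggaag
miR-30c-5p: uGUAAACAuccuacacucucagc
miR-30e-5p: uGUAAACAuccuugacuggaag
The second set is the 3p arms, which carry 2 different seeds.
miR-30a-3p: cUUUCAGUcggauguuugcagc
miR-30e-3p: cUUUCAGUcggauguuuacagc
miR-30c-2-3p: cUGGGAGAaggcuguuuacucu
miR-30c-1-3p: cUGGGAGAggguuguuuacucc
Counted from 1 at the 5′ end, miR-30a-5p and miR-30e-5p differed by the single substitution C13U, and miR-30a-3p and miR-30e-3p by G18A. MiR-30a-5p and miR-30c-5p differed at 5 positions, and miR-30c-5p was 1 base longer. The RefSeq table held no entry for miR-30b-5p, miR-30d-5p and miR-30d-3p, so their seeds were not counted. Among its 2370 mature miRNAs, the seed GUAAACA was carried by 3, all of them the miR-30 5p arms above. The seed UUUCAGU was carried by 2, miR-30a-3p and miR-30e-3p. These counts leave out the members without an entry and do not give the size of either seed group. How reads matching more than 1 mature miRNA were counted is not given in the sources used here. The split of counts between miR-30a and miR-30e therefore rests on 1 base per arm. How closely miR-30a matches miR-30b-5p, miR-30d-5p and miR-30d-3p was not compared, so how well the counts separate it from these members is not known here.

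On GRCh37, in the GENCODE annotation, MIR30A lies at chr6:72113254-72113324 on the minus strand within an intron of the long non-coding RNA gene LINC00472, and MIR30C2 lies in the same gene at chr6:72086663-72086734, overlapping an exon, 26591 bases away. MIR30E, at chr1:41220027-41220118, and MIR30C1, at chr1:41222956-41223044, lie on the plus strand in introns of NFYC, a subunit gene of the transcription factor NF-Y, 2929 bases apart. MiR-30c-5p is the product of both MIR30C1 and MIR30C2, so its counts cannot be assigned to a locus, whereas the 3p arms of these hairpins differ by G9A, U12C and C22U from miR-30c-1-3p to miR-30c-2-3p.

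Levels are given as normalized CPM, the count per 1000000 miRNA counts of the library after upper quartile scaling within each line. Mature miRNAs are about the same length, so no length correction was applied, but ligation differs between sequences and the order of levels is an order of reads. In DLD1 2D, miR-30d-5p was the most abundant member at 15930 ± 138 normalized CPM (SD, n = 2), followed by miR-30e-5p at 4654 ± 1130, miR-30c-5p at 1693 ± 35.9, miR-30b-5p at 624.2 ± 91.9, miR-30a-5p at 397.2 ± 33.4 and miR-30e-3p at 338.7 ± 26.4. The libraries of neighbours in this order did not overlap. In HT29 2D, miR-30e-5p (11610 ± 3280) and miR-30d-5p (8645 ± 233) led, and in HT29 MCS these 2 overlapped, at 10400 ± 1840 and 11890 ± 537. Within single libraries, miR-30e-5p was the higher in both HT29 2D libraries and miR-30d-5p in both HT29 MCS libraries. These 2 members were followed in both HT29 cultures by miR-30b-5p and then miR-30c-5p, the reverse of the order of that pair in DLD1. MiR-30a-3p, miR-30d-3p in DLD1 and miR-30c-2-3p were near or below 10 CPM.

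**Figure D1:**
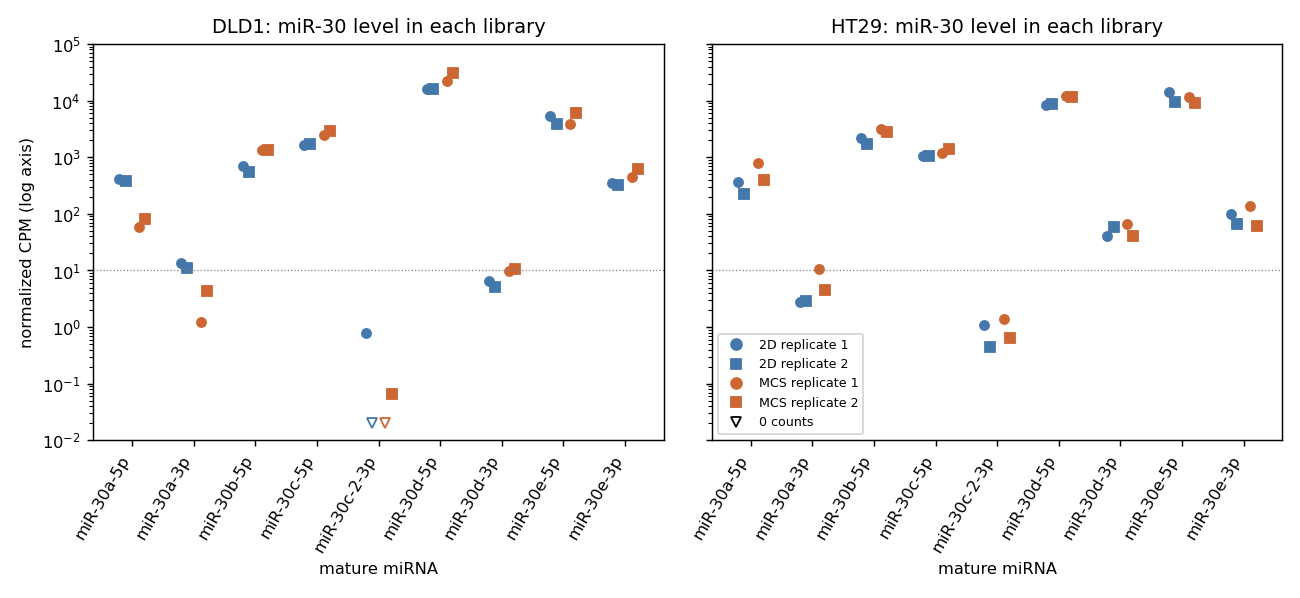
Normalized CPM (log axis) of the 9 members in each library of DLD1 (left) and HT29 (right), with 2D in blue, MCS in orange, replicate 1 as circles, replicate 2 as squares, and open triangles for 0 counts. The dotted line marks 10 CPM. MiR-30a-5p and miR-30a-3p were the members whose MCS libraries lay clearly below 2D in DLD1, and both lay above 2D in HT29.

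The first comparison asked how MCS growth changed the family in DLD1. MiR-30a-5p fell 5.67-fold in MCS while miR-30b-5p, miR-30c-5p, miR-30d-5p and miR-30e-3p rose between 1.58-fold and 2.18-fold, and miR-30e-5p did not pass the test. Of the 9 members, 6 had a mean of at least 10 CPM and were tested, and of these 4 were called higher and 1 lower, a call being a fold change of at least 1.5 with an adjusted p under 0.05 (edgeR quasi-likelihood test, Benjamini-Hochberg). Calls were frequent in DLD1 as a whole, at 41.3% of 346 tested miRNAs, with 29.8% called higher and 11.6% called lower, so being called higher was common among all miRNAs. The libraries of the 2 cultures did not overlap for 5 of the 6 tested members, against 70.8% of all tested miRNAs. The median log2 fold change of the 6 was 0.66, beside 0.23 over all tested miRNAs.

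MiR-30a-5p, the 5p strand of the hairpin in LINC00472, was read 7380 and 11111 times in the DLD1 2D libraries and 1114 and 1229 times in the MCS libraries. This corresponded to 421 and 374 normalized CPM in 2D and 59.5 and 80.5 in MCS. Both MCS libraries were low, and the cultures did not overlap. The log2 fold change was -2.50 (SE 0.26, edgeR adjusted p = 1.01e-19), the fourth lowest of the 346 miRNAs tested in DLD1. In every one of 11 alternative settings and in each of 4 fits that left out 1 library it was called lower, at between -3.16 and -2.47. The spread in the DLD1 fit came wholly from the trend over all miRNAs, and with the spread shared over all 8 libraries the edgeR adjusted p of miR-30a-5p was 0.0173.

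MiR-30a-3p, the other strand of the same hairpin, fell below the level needed for the test. It was read 234 and 331 times in DLD1 2D and 23 and 67 times in DLD1 MCS, or 13.3 and 11.1 against 1.23 and 4.39 normalized CPM. Both MCS libraries were again below both 2D libraries. In the fit without the filter on low counts its log2 fold change was -2.13 (SE 0.44, edgeR adjusted p = 3.2e-05).

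MiR-30b-5p was at 689 and 559 normalized CPM in DLD1 2D and at 1364 and 1356 in MCS. The MCS libraries were close together and above both 2D libraries. The log2 fold change was 1.12 (SE 0.23, edgeR adjusted p = 9.77e-06), the largest rise among the tested members. It was called higher in 9 of 10 alternatives and in all 4 fits with 1 library left out, and in the edgeR fit over all 8 libraries its adjusted p was 0.0558.

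The rises of the other 3 members were smaller and depended on the scaling. MiR-30c-5p was at 1667 and 1718 normalized CPM in 2D and 2471 and 2869 in MCS (log2 fold change 0.66, edgeR adjusted p = 0.0145). MiR-30d-5p, the eighth most abundant miRNA of DLD1, was at 16027 and 15832 in 2D and 21802 and 30587 in MCS (0.72, edgeR adjusted p = 0.0332). MiR-30e-3p was at 357 and 320 in 2D and 451 and 622 in MCS (0.66, edgeR adjusted p = 0.0136). For all 3 the MCS libraries lay above the 2D libraries, with replicate 2 of MCS the higher in normalized CPM. That order depended on the scaling. As CPM of the library total, MCS replicates 1 and 2 were at 2559 and 2140 for miR-30c-5p and 22580 and 22810 for miR-30d-5p. For miR-30e-3p they were at 466.7 and 463.8. With TMM, RLE, library totals or an upper quartile over the tested miRNAs alone, none of these 3 reached the call, while miR-30a-5p and miR-30b-5p did with each. With TMM and RLE, miR-30c-5p (edgeR adjusted p = 0.0392 and 0.0298) and miR-30d-5p (0.0481 and 0.0378) missed it on the 1.5-fold change alone. The call of all 3 was also lost with DESeq2, without the filter on low counts and in the fit over all 8 libraries, and with 1 library left out it was kept only without MCS replicate 1.

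Those scalings lowered the median log2 fold change of all DLD1 miRNAs by 0.24 to 0.46. The split of calls moved with them, from 103 higher and 40 lower to 70 and 67 with TMM, 72 and 63 with RLE, 60 and 83 with library totals and 49 and 93 with the upper quartile over tested miRNAs. Relative to the median of all tested miRNAs under the upper quartile scaling used here, the log2 fold change was -2.73 for miR-30a-5p, 0.90 for miR-30b-5p, 0.43 for miR-30c-5p, 0.49 for miR-30d-5p, 0.44 for miR-30e-3p and -0.12 for miR-30e-5p.

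MiR-30e-5p, which differs from miR-30a-5p by C13U, was at 5450 and 3857 normalized CPM in DLD1 2D and at 3907 and 6152 in MCS. The libraries overlapped, with a log2 fold change of 0.11 (95% interval -0.37 to 0.60, edgeR adjusted p = 0.716), and its sign turned under the other scalings, to between -0.39 and -0.14. MiR-30d-3p was at 6.61 and 5.08 normalized CPM in 2D and 9.94 and 10.5 in MCS and was too low for the test. MiR-30c-2-3p was read 14 and 0 times in DLD1 2D and 0 and 1 times in MCS, where a count of 0 allows up to 0.118 to 0.166 CPM.

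**Figure D2:**
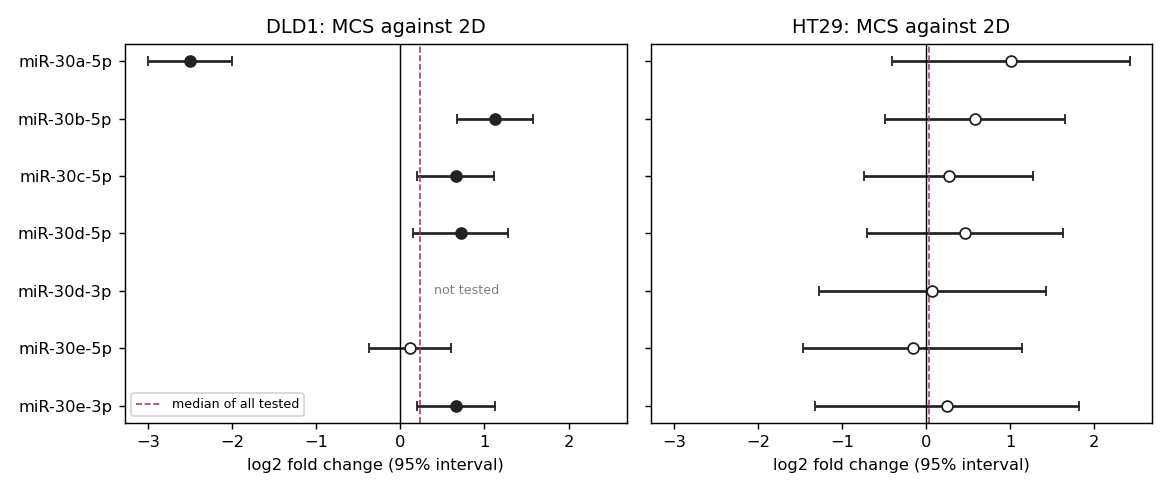
Log2 fold change of MCS against 2D with its 95% interval for each member tested in DLD1 (left) or HT29 (right). Filled points were called, open points were not, and the dashed line is the median of all miRNAs tested in that line (0.23 in DLD1, 0.03 in HT29). MiR-30a-5p at -2.50 was the only tested member called lower in DLD1, and every HT29 interval spans 0.

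The same comparison in HT29 called no member. Of the 9 members, 7 were tested, and 0 of 301 miRNAs (0%) were called in this line by edgeR, where 12 had an unadjusted p under 0.05 and DESeq2 called 12. The typical spread between replicates was wide, with a median absolute log2 difference of 0.68 between replicates in HT29 against 0.26 in DLD1. Of the 7 tested members 6 had a positive log2 fold change, of which that of miR-30d-3p turned negative under the other scalings, and 4 did not overlap between cultures, against 28.6% of all tested miRNAs. Their median log2 fold change was 0.27, beside 0.03 over all.

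MiR-30a-5p had the largest log2 fold change of the 7 in HT29. It was read 2004 and 9919 times in 2D and 6287 and 10766 times in MCS, which gave 366 and 228 normalized CPM in 2D and 789 and 403 in MCS. Both MCS libraries were above both 2D libraries, although MCS replicate 2 exceeded 2D replicate 1 only slightly. The log2 fold change was 1.01 (SE 0.55, 95% interval -0.41 to 2.42, edgeR adjusted p = 0.977). As CPM of the library total, without further scaling, it stood at 190.9 and 378.4 in 2D and 585.1 and 626.6 in MCS. Between libraries of the same replicate number the MCS level was 2.16 times the 2D level for replicate 1 and 1.77 times for replicate 2. Leaving out a library moved the value between 0.41, without MCS replicate 1, and 1.39, without MCS replicate 2. MiR-30a-3p was read 15 and 127 times in HT29 2D and 86 and 122 times in MCS, or 2.74 and 2.92 against 10.8 and 4.56 normalized CPM, again with both MCS libraries higher (log2 fold change 1.42 without the filter, edgeR adjusted p = 0.973).

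The other HT29 members differed less. MiR-30b-5p was at 2203 and 1695 normalized CPM in 2D and 3108 and 2747 in MCS, a log2 fold change of 0.59 (95% interval -0.48 to 1.66). MiR-30d-5p was at 8480 and 8810 in 2D and 12271 and 11511 in MCS, a log2 fold change of 0.46 (-0.71 to 1.63). MiR-30c-5p was at 1072 and 1058 in 2D and 1172 and 1392 in MCS, a log2 fold change of 0.27 (-0.74 to 1.27). For these 3 the MCS libraries were higher than 2D, but as CPM of the library total their cultures overlapped.

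MiR-30e-5p, at 13927 and 9291 normalized CPM in HT29 2D and 11708 and 9101 in MCS, overlapped between cultures (log2 fold change -0.16, 95% interval -1.46 to 1.14). The 3p arms miR-30d-3p (0.07) and miR-30e-3p (0.25) overlapped as well, with replicate 1 high and replicate 2 low in MCS. MiR-30c-2-3p was read 6 and 19 times in 2D and 11 and 17 times in MCS. The 7 members tested in HT29 all had an edgeR adjusted p of 0.977.

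Whether the lines responded differently was asked with the interaction of line and culture, fitted to the 8 libraries for 250 miRNAs. For miR-30a-5p the HT29 response exceeded the DLD1 response by 3.50 on the log2 scale (SE 0.61, 95% interval 2.06 to 4.94, edgeR adjusted p = 0.178). It ranked first of the 250 by p but did not pass the threshold, and 0 of 250 miRNAs (0%) were called by edgeR, with 23 at an unadjusted p under 0.05 and 21 called by DESeq2. Its adjusted p was 0.047 with TMM, 0.0431 with RLE, 0.0121 without the filter and 8.27e-11 with DESeq2, and 0.153 with library totals, 0.0995 with the upper quartile over tested miRNAs and 0.155 with at least 10 CPM in every library. With 1 library left out the difference ranged from 2.98 to 3.95, and its adjusted p from 0.0291, without HT29 MCS replicate 2, to 0.796. For the other 5 members tested in both lines the difference lay between -0.57 and -0.27, with edgeR adjusted p from 0.708 to 0.917, and for all but miR-30b-5p its sign turned with library totals.

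**Figure D3:**
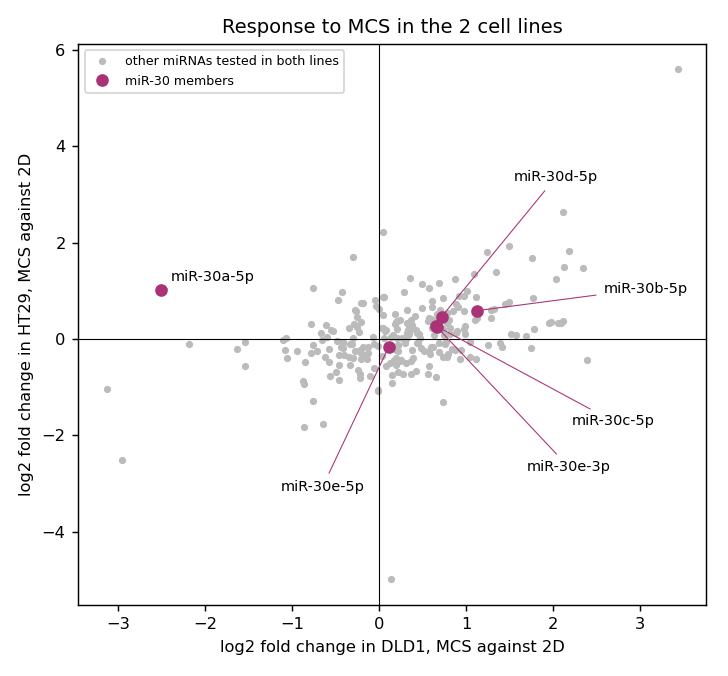
Log2 fold change of MCS against 2D in DLD1 (x axis) and HT29 (y axis) for the 250 miRNAs tested in both lines, with the 6 miR-30 members tested in both in purple. MiR-30a-5p lies at -2.50 and 1.01, in the quadrant of lower in DLD1 and higher in HT29, whereas miR-30b-5p, miR-30c-5p, miR-30d-5p and miR-30e-3p lie on the positive side of both axes.

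Ratios within a library do not depend on how libraries are scaled. The count of miR-30a-5p was therefore divided by the geometric mean of the 5p counts of the miR-30b, miR-30c, miR-30d and miR-30e loci. In DLD1 it was 13.3% and 13.5% of that mean in 2D and 1.45% and 1.55% in MCS, a change of -3.16 on the log2 scale or 8.95-fold lower. The replicates lay very close together compared with this change. In HT29 it was 8.94% and 6.55% in 2D and 16.5% and 9% in MCS, a change of 0.67, and MCS replicate 2 exceeded 2D replicate 1 by a narrow margin. The exact permutation test of culture within lines (36 arrangements, two-sided) gave p = 0.0556 for the difference between the lines, the smallest it can give, or 0.444 after adjustment over 8 p-values, and p = 0.333 for the mean of the lines.

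Against miR-30e-5p alone, which differs by C13U, miR-30a-5p stood at 7.72% and 9.69% in DLD1 2D and 1.52% and 1.31% in DLD1 MCS, and at 2.62% and 2.45% in HT29 2D and 6.74% and 4.43% in HT29 MCS. The 3p arms gave a second reading of this pair of loci. MiR-30a-3p was 3.73% and 3.48% of miR-30e-3p in DLD1 2D and 0.273% and 0.706% in DLD1 MCS, 8.21-fold lower, and 2.74% and 4.35% in HT29 2D and 7.9% and 7.36% in HT29 MCS, 2.21-fold higher. On both arms the cultures did not overlap in either line, lower in MCS for DLD1 and higher in MCS for HT29.

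The ratio of the 5p to the 3p count of a hairpin showed whether its arms moved together. For miR-30a it was 31.5 and 33.6 in DLD1 2D and 48.4 and 18.3 in MCS, and 134 and 78.1 in HT29 2D and 73.1 and 88.2 in MCS, so the cultures overlapped in both lines. The DLD1 difference was -0.13 on the log2 scale and the HT29 difference -0.35. For miR-30d the cultures also overlapped in both lines. For miR-30e the ratio was 15.3 and 12.1 in DLD1 2D and 8.67 and 9.89 in MCS, 1.46-fold lower with no overlap, while the HT29 ratios, 140 and 139 in 2D against 85.7 and 147 in MCS, overlapped. The exact permutation p for the mean of the lines was 0.5 for miR-30a, 0.667 for miR-30d and 0.167 for miR-30e.

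**Figure D4:**
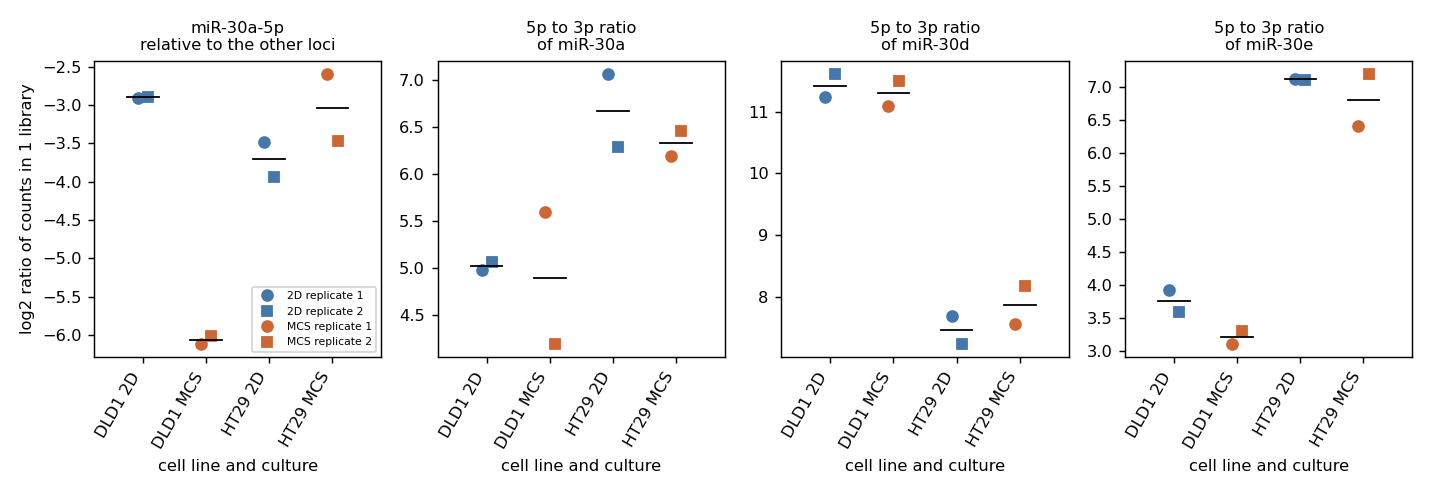
Log2 ratios of counts within each library, for miR-30a-5p over the geometric mean of the other 5p loci and for the 5p over the 3p count of miR-30a, miR-30d and miR-30e, by cell line and culture, with points for libraries (circles replicate 1, squares replicate 2) and bars for group means. The first panel separates DLD1 MCS, near -6.06, from DLD1 2D, near -2.90, while the 5p to 3p ratio of miR-30a overlaps between cultures.

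As a share of the family's 5p counts, miR-30a-5p went from 1.7% ± 0.0424 in DLD1 2D to 0.199% ± 0.00354 in MCS (SD, n = 2), and stood at 1.24% ± 0.226 in HT29 2D and 2.16% ± 0.792 in MCS. MiR-30d-5p and miR-30e-5p together supplied most 5p reads in every library. MiR-30d-5p took 68.5% ± 3.39 in DLD1 2D and 74% ± 0.636 in MCS, and 37.2% ± 6.51 and 44% ± 2.55 in HT29. MiR-30e-5p took 19.9% ± 3.68 and 14.1% ± 1.27 in DLD1, and 48.8% ± 6.65 and 38.2% ± 2.9 in HT29, with both MCS libraries below both 2D libraries in each line. The 95% Wilson intervals of these shares in single libraries were at most 0.52 percentage points wide and cover counting error only.

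**Figure D5:**
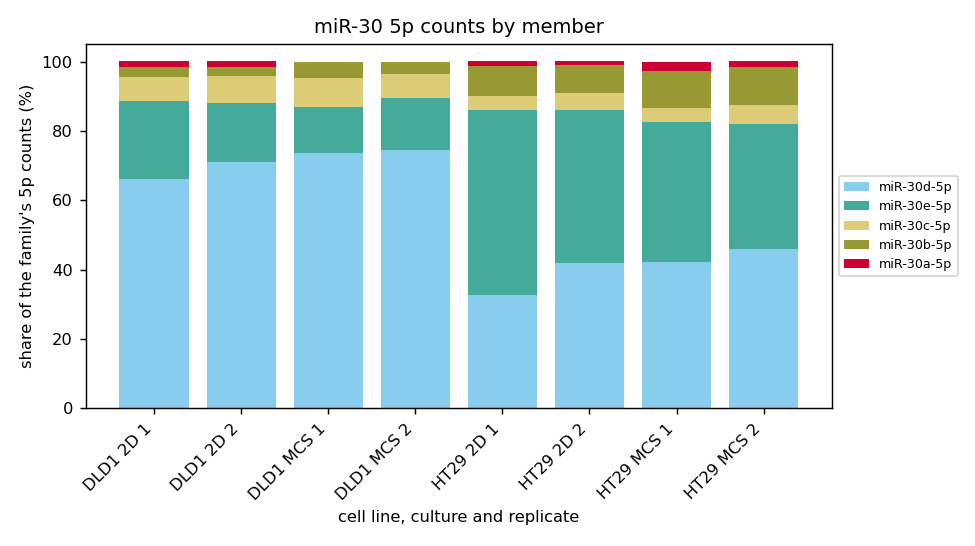
Share of the family's 5p counts (%) held by each member in each of the 8 libraries, stacked to 100%. MiR-30a-5p is the thin red segment on top, 1.7% on average in DLD1 2D, 0.199% in DLD1 MCS, 1.24% in HT29 2D and 2.16% in HT29 MCS, and miR-30d-5p is the largest segment in DLD1.

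The 3p arms of the miR-30c hairpins separate the locus beside MIR30A from the locus beside MIR30E. In DLD1, 259 counts of miR-30c-1-3p were found over the 4 libraries against 15 of miR-30c-2-3p, and in HT29 1121 against 53, beside 170378 and 98488 counts of miR-30c-5p. The 15 DLD1 counts were too few to show whether miR-30c-2-3p moved with miR-30a. MiR-30c-1-3p and miR-30b-3p were tested in HT29 alone, where their log2 fold changes were -0.38 and -0.05 (edgeR adjusted p = 0.977 for both).

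Outside the family, the miRNAs whose levels followed miR-30a-5p most closely over the 8 libraries, each line centred on its own mean, were miR-27a-5p (Pearson's r = 0.91), miR-500a-5p (0.90) and miR-7-5p (0.87), among 250 compared. The 8 points share libraries and scaling, and the likeness is given as a description. All 3 were called lower in DLD1 MCS, with log2 fold changes of -0.67, -1.54 and -1.64, beside 11.6% called lower of all tested. Since they were chosen for likeness to miR-30a-5p over these same libraries, a fall there was favoured by the choice. MiR-7-5p, for example, was at 1699 and 1551 normalized CPM in DLD1 2D and 404 and 641 in MCS. In HT29 their log2 fold changes were 0.12, -0.05 and -0.22, none called.

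Other miRNAs commonly described as keeping cells epithelial were set beside the family. Of 8 listed, 7 were tested in DLD1 and 6 were called higher in MCS and 0 lower, beside 29.8% called higher and 11.6% called lower of all 346 tested, and their median log2 fold change was 1.04, beside 0.23 over all. The count was 6 with TMM and RLE, 5 with library totals, 3 with the upper quartile over tested miRNAs and 2 without 2D replicate 2 or in the fit over all 8 libraries. These were the miR-200 family members miR-141-3p (0.98), miR-200a-3p (1.28), miR-200b-3p (1.26) and miR-200c-3p (1.04), which repress ZEB1 and ZEB2, with the keratinocyte differentiation miRNA miR-203a-3p (2.06) and the p53 target miR-34a-5p (0.88). MiR-429, also of the miR-200 family, was at 0.56 and was not called (edgeR adjusted p = 0.0566). In HT29 all 8 were tested, 0 were called by edgeR, and the median was 0.22, beside 0.03 over all. MiR-205-5p, tested in HT29 alone, had the lowest value of the list there, at -1.32 (95% interval -2.74 to 0.09, edgeR adjusted p = 0.975), with both MCS libraries below both 2D libraries, and the other 7 lay between -0.12 and 0.88. MiR-30a-5p, called lower in DLD1, moved opposite to the 6 called higher there, which follows from naming those called higher. Of the family, miR-30b-5p, miR-30c-5p, miR-30d-5p and miR-30e-3p were called higher in DLD1 as well, all but miR-30b-5p depending on the scaling.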

How the data were processed

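The labels gave each library's line, culture and replicate number. Per the labels and methods, the authors cut off adapters with the random end bases, discarded short or low-quality reads, and aligned the rest to GRCh37 and the mature miRNAs of miRBase. The submitters' notes list CASAVA 1.8.3, cutadapt 1.11, Bowtie2 2.1.0 and edgeR 3.4.2. The deposited values are raw read counts per mature miRNA, neither normalized nor pooled, and single-library tables and the joint table differed in 0 of 12572 values. Entries naming no miRNA (15, with 0.00988% of the counts of HT29 2D replicate 2) were left out.

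Counts were tested with edgeR 4.0.16 in R 4.3.3 (quasi-likelihood test, MCS against 2D within each line). Upper quartile factors were computed over miRNAs with a count, and a miRNA was tested where its mean reached 10 CPM. Calls needed a 1.5-fold change and a Benjamini-Hochberg adjusted p under 0.05 over all tested miRNAs. The interaction of line and culture was fitted over all 8 libraries. Count ratios within libraries were compared by exact permutation, where 2 against 2 in 1 line cannot give a p below 0.333 and both lines together cannot go below 0.0556. Tests were tried on counts simulated with a common spread per line. Those counts did not carry the deviations that same-numbered libraries shared. Alternatives were other scalings, filters, DESeq2 1.42.0, edgeR's exact test, a replicate block, a joint fit and each library left out.

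The text names the 9 members, the other 2 listed arms, the 3 miRNAs most correlated with miR-30a-5p and the miRNAs of the epithelial list, called or not. The members and lists were chosen with earlier results of these data known. Depth was 10495634 to 26211524 counts per library, so for the abundant members precision is set by the spread between 2 replicates. The DLD1 fit took that spread from the trend over all miRNAs, not from each member alone. For miR-30a-3p and miR-30c-2-3p, with few counts in some libraries, counting limits precision as well.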

Additional observations from a re-analysis of the deposited data

Results flagged for a closer look

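The MCS libraries of miR-30a lay on opposite sides of 2D in the cell lines. On the log2 scale the fold change of miR-30a-5p was -2.50 in DLD1, where it was called, and 1.01 in HT29, where it was not (edgeR adjusted p = 0.977), with both libraries of each MCS group on that side of both 2D libraries. Of all tested miRNAs, 70.8% in DLD1 and 28.6% in HT29 did not overlap between cultures. Lying on opposite sides in the lines was not particular to miR-30a, since other miRNAs tested in both lines did so too. Their share was not counted. The difference between the lines in miR-30a-5p was tested as an interaction (edgeR adjusted p = 0.178 over 250 miRNAs). MiR-30a-3p, below the level needed for the test, differed by -2.12 in DLD1 and by 1.44 in HT29 between the mean normalized CPM of the cultures. Its difference between the lines was tested only in the interaction fit without the filter on low counts, where it was not called. Relative to the other miR-30 loci, miR-30a-5p differed by -3.16 in DLD1 and by 0.67 in HT29 (exact permutation p = 0.0556, the smallest possible, adjusted p = 0.444). Cell line, medium and kit version cannot be told apart in these differences. With 2 libraries a group, no sample could be tested as standing apart from its group.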

How the results depend on the processing

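Of the 6 members tested in DLD1, 5 were called in the report. This became 2 with TMM, RLE, library totals, the upper quartile over tested miRNAs and DESeq2, 3 without the filter (of 9 tested, miR-30a-3p among the 3) and 3 with the replicate block, and 1 (miR-30a-5p) in the fit over all 8 libraries. With 1 library left out it ranged from 2 to 6 (2 without DLD1 2D replicate 1, 2D replicate 2 or MCS replicate 2, and 6 of 7 tested without MCS replicate 1, where miR-30a-3p was tested and miR-30e-5p was not called). In HT29 it was 0, or 1 (miR-30a-5p) with the replicate block, where its log2 fold change was 0.97 at an edgeR adjusted p of 0.0277, and 0 with any library left out. For the difference between lines it was 0 in the report, 1 (miR-30a-5p) with TMM, RLE, no filter, DESeq2 or the replicate block, and 0 to 1 with 1 library left out, the 1 without HT29 MCS replicate 2. Over all miRNAs, calls in DLD1 ranged from 30 (all libraries in 1 fit) to 171 (no filter), and were 92 without 2D replicate 2. In HT29 they reached 15 without the filter, 12 with DESeq2, 5 with the exact test and 47 with the replicate block, and for the difference 21 with DESeq2, 5 without the filter and 40 with the block. Of the epithelial list, 1 miRNA was called lower in HT29 with the block, miR-205-5p (-1.38). Relative to miR-30e-5p alone, miR-30a-5p changed by -2.61 in DLD1.

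The following log2 values changed sign, and none of them was called. MiR-30e-5p in DLD1 became -0.17 with TMM, -0.14 with RLE and with DESeq2, -0.29 with library totals and -0.39 with the upper quartile over tested miRNAs, and in HT29 0.0087 with library totals. MiR-30d-3p in HT29 became -0.057 with TMM, -0.064 with RLE, -0.10 with library totals, -0.14 with the upper quartile over tested miRNAs and -0.068 with DESeq2. The HT29 minus DLD1 difference became 0.10, 0.18, 0.0010 and 0.30 for miR-30c-5p, miR-30d-5p, miR-30e-3p and miR-30e-5p with library totals, and 0.10, 0.25, 0.13 and 0.26 with the upper quartile over tested miRNAs. With 1 library left out, the ranges were -0.30 to 0.25 (miR-30e-5p, DLD1), -0.34 to 0.36 (miR-30d-3p, HT29), -0.51 to 0.16 (miR-30e-5p, HT29), -0.41 to 0.36 (miR-30b-3p, HT29), -0.46 to 0.69 (miR-30e-3p, HT29), and, for the difference, -0.56 to 0.068 (miR-30e-5p) and -1.05 to 0.082 (miR-30e-3p). The within-library ratios gave, likewise, -3.21 to -3.11 and 0.23 to 1.11 for miR-30a-5p relative to the other loci in DLD1 and HT29, and 5p to 3p differences of -0.83 to 0.57 and -0.73 to 0.04 for miR-30a, -0.33 to 0.08 and 0.10 to 0.71 for miR-30d, and -0.72 to -0.38 and -0.70 to 0.08 for miR-30e. The causes were not tested.

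The replicate numbers are not stated to mark a shared batch. Same-numbered libraries deviated together from their group means (r = 0.32 in DLD1 and 0.79 in HT29), and the block left the within-library ratios at -3.16 and 0.67 by construction. With a median absolute log2 difference of 0.68 between HT29 replicates, the replicate spread rather than the depth limits what the HT29 comparison could show.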

Other observations

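The balance of arms differed between the cell lines in every library. For miR-30e the 5p to 3p ratio was 8.67 to 15.3 in the 4 DLD1 libraries and 85.7 to 147 in the 4 HT29 libraries, and for miR-30a it was 18.3 to 48.4 against 73.1 to 134. For miR-30d the order was the other way, 2190 to 3120 in DLD1 and 151 to 288 in HT29. These ranges do not overlap, and no test was run. The kit version changed with the line, so cell line and kit cannot be told apart here.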
